A study of Rattus norvegicus with 6 samples.

Results

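Core circadian clock genes were examined in rat bone marrow mesenchymal stem cells (BMSCs) exposed to cigarette smoke extract (CSE). The 10 genes were taken by symbol from the deposited read count table: the activators Arntl (current symbol Bmal1) and Clock, the repressors Per1, Per2, Per3, Cry1 and Cry2, the nuclear receptor genes Nr1d1 and Nr1d2, and the output factor gene Dbp. They are 10 of 37209 gene symbols, and all 10 passed the filter on low counts. The cells were wild-type primary BMSCs of the femur, expanded in serum-containing αMEM, and 2 groups of 3 libraries were made after 6 h: cells given 3% CSE, a solution that carries the soluble part of cigarette smoke, and control cells in serum-free medium. The labels do not say whether the extract was also given without serum, whether the cultures had been synchronized, or at what hour they were harvested. They also leave unsaid whether libraries of 1 group are separate cultures or animals, so the p-values measure a spread that may be technical. There is 1 time point, so a change in the level of a rhythmic transcript and a shift in its phase cannot be told apart.

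The circadian clock of mammalian cells is a transcriptional feedback loop. BMAL1 and CLOCK bind as a dimer to E-box sequences and activate Per, Cry, Nr1d and Dbp genes. PER and CRY proteins accumulate, enter the nucleus and repress the dimer, while the REV-ERB receptors encoded by Nr1d1 and Nr1d2 repress Arntl, which ROR receptors activate through the same element. DBP acts on D-box elements and passes the rhythm on to other genes. In a cycling culture Arntl peaks roughly opposite to Nr1d1, Dbp and the Per genes. Cultured fibroblasts and stromal cells carry such clocks, and serum, glucocorticoids and cAMP signalling can reset them.

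The libraries held 15958621 to 22589327 counts. Values are counts per 1000000 counts (CPM) of the library size scaled by edgeR's TMM factors, and log2 fold changes are CSE over control ± SE. The 11 stromal markers summed to 46655 to 48436 CPM with CSE and 47652 to 50390.0 CPM in the control, most of it from Col1a1 (26096 ± 666 and 28797 ± 1889 CPM) and Col3a1 (15152 ± 236 and 15214 ± 190.2 CPM). Of these markers 4 rose, 4 fell and 3 did not pass, where 36.3% of all tested genes rose and 37.5% fell. Cd44 rose 2.13-fold (edgeR adjusted p = 6.23e-13) and Vcam1 5.71-fold on 4 to 40 reads per library (edgeR adjusted p = 8.61e-06). The receptor genes Pdgfra and Pdgfrb fell 1.96-fold and 1.83-fold (edgeR adjusted p of at most 1.44e-10). Blood and macrophage markers summed to 1715 to 1770.0 CPM with CSE and 1541 to 1587 CPM in the control. Of the 8 tested, 2 were called higher, 3 lower and 3 neither, against the same shares of all tested genes. The higher sum came from Lyz2 (1414 ± 24.8 against 1175 ± 19.3 CPM). The other 10 markers together summed to 316 to 337 CPM with CSE and 384 to 392 CPM in the control. Cd14 was 2.74-fold lower. The macrophage marker Cd68 was called higher only just (51.8 ± 3.08 against 47.0 ± 0.791 CPM, edgeR adjusted p = 0.0448). Adgre1 was level (52.5 ± 3.11 against 52.4 ± 1.86 CPM) and did not pass. Csf1r was called lower (117 ± 6.28 against 139 ± 0.206 CPM, edgeR adjusted p = 2.59e-04). Itgam lay lower in every CSE library (39.2 ± 0.251 against 42.6 ± 2.51 CPM) but did not pass. The leukocyte gene Ptprc was at 49.3 ± 0.819 CPM with CSE and 61.9 ± 2.30 CPM in the control (SD, n = 3), whereas the lymphocyte genes Cd79a and Cd3e were listed at 0 in every library. The sums for 5 endothelial markers were 3.51 to 4.34 CPM against 6.42 to 7.59 CPM, and for 5 fat cell markers 41.2 to 45.4 CPM against 67.8 to 77.4 CPM, almost all of it Fabp4. The part of these other cells in the results below was not tested, and in bulk RNA fewer cells of a type and less RNA per cell cannot be told apart.

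Promoter sequences were taken from RefSeq (rat build GRCr8), which has 250 bases before to 50 bases after the annotated start for 9 of the 10 genes. Cry1 is not among them. Clock and Nr1d1 each have a pair of annotated starts, giving 11 windows. The windows below are shown because they hold the elements through which the loops of the clock are known to run. They read 5′ to 3′ on the strand of the gene, and capitals mark the REV-ERB and ROR core element AGGTCA, the E-box CACGTG, the E'-box CACGTT or its reverse complement AACGTG, and the D-box TTATGTAA.
Arntl, chr1:176766078-176766377, plus strand: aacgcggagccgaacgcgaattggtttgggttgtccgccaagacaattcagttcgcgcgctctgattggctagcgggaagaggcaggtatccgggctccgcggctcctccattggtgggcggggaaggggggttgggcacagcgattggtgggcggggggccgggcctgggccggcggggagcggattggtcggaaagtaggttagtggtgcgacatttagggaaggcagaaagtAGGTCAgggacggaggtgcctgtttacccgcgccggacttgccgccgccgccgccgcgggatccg
Nr1d2, chr15:9954784-9955083, plus strand: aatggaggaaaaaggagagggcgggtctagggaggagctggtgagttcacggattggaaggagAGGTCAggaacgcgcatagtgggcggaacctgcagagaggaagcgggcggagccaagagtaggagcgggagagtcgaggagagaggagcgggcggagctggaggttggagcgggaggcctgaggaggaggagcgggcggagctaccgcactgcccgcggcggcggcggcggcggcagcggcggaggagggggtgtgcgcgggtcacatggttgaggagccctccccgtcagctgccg
Nr1d1, upstream start, chr10:84231763-84232062, minus strand: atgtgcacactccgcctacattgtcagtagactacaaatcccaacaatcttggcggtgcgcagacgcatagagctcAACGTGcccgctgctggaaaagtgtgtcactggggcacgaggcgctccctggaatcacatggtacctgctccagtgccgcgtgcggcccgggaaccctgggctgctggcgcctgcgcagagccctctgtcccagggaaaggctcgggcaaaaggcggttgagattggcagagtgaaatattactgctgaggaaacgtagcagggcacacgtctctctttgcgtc
Nr1d1, downstream start, chr10:84229405-84229704, minus strand: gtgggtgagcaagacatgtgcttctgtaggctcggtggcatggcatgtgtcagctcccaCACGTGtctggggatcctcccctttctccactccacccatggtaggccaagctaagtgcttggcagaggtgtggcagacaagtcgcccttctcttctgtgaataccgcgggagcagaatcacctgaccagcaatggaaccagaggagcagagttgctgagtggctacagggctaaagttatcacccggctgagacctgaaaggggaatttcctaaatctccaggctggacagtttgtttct
Per2, chr9:99496944-99497243, minus strand: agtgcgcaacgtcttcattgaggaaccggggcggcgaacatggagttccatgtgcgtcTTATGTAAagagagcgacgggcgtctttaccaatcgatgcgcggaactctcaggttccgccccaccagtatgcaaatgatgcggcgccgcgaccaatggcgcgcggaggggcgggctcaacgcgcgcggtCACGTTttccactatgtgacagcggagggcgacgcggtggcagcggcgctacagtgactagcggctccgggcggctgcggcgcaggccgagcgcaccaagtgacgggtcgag

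Both strands were searched. AGGTCA was found in Arntl, 15 to 10 bases before the start, and in Nr1d2, 187 to 182 bases before it, that is in 2 of the 9 genes, and in 16.2% of all 33469 RefSeq promoter windows. The E-box CACGTG was found in 1 gene, Nr1d1, at 191 to 186 bases before the downstream start, and in 6.42% of all windows. The E'-box CACGTT was found in Per2 at 62 to 57 bases before the start, in Nr1d1 at 174 to 169 bases before the upstream start, and in Cry2 at 212 to 207 bases before the start, against 4.83% of all windows. A D-box (TTATGTAA or TTACGTAA) stood in 1 of the 9 genes, Per2, at 192 to 185 bases before the start, against 1.01% of all windows, and the cAMP response element TGACGTCA stood in 0 of the 9 genes, against 1.83%. Of motifs tied to the exposure, the antioxidant response core TGACNNNGC was found in Per2 at 69 to 61 bases before the start, where it overlaps the E'-box by 2 bases (12.1% of all windows). The aryl hydrocarbon receptor core GCGTG was found in Per3, Nr1d1 and Dbp (29.7%) and the heat shock element GAANNTTC or TTCNNGAA in Per3 (15.9%). A match describes these letters in this window and not a bound site. An absence likewise holds for the window alone, since elements farther from the start were not searched for. Genes with a pair of windows were counted once, whereas the shares are of single windows.

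Arntl rose and Dbp fell most among the clock genes, the 3 Per genes fell by less, and Nr1d1, Nr1d2, Cry1 and Clock rose modestly. By edgeR's quasi-likelihood test (p-values adjusted by Benjamini and Hochberg's method over 13390 genes, threshold 0.05), 5 of the 10 rose, 4 fell and 1, Cry2, did not pass. Over all tested genes 36.3% rose and 37.5% fell, 73.9% in all, so that a call by itself is common in this comparison and 9 of 10 is not set apart from the background. Changes of at least 2-fold were fewer. Arntl alone rose that much and Dbp alone fell that much, 2 of 10 genes, where 10.7% of all tested genes rose and 14.4% fell by as much, 25.2% in all. Every CSE library lay on one side of every control library for all 10 clock genes, which was so for 75.8% of all tested genes. The median log2 fold change of the 10 genes was 0.18, against −0.02 over all tested genes, and it joins members of opposite direction.

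**Figure D1:**
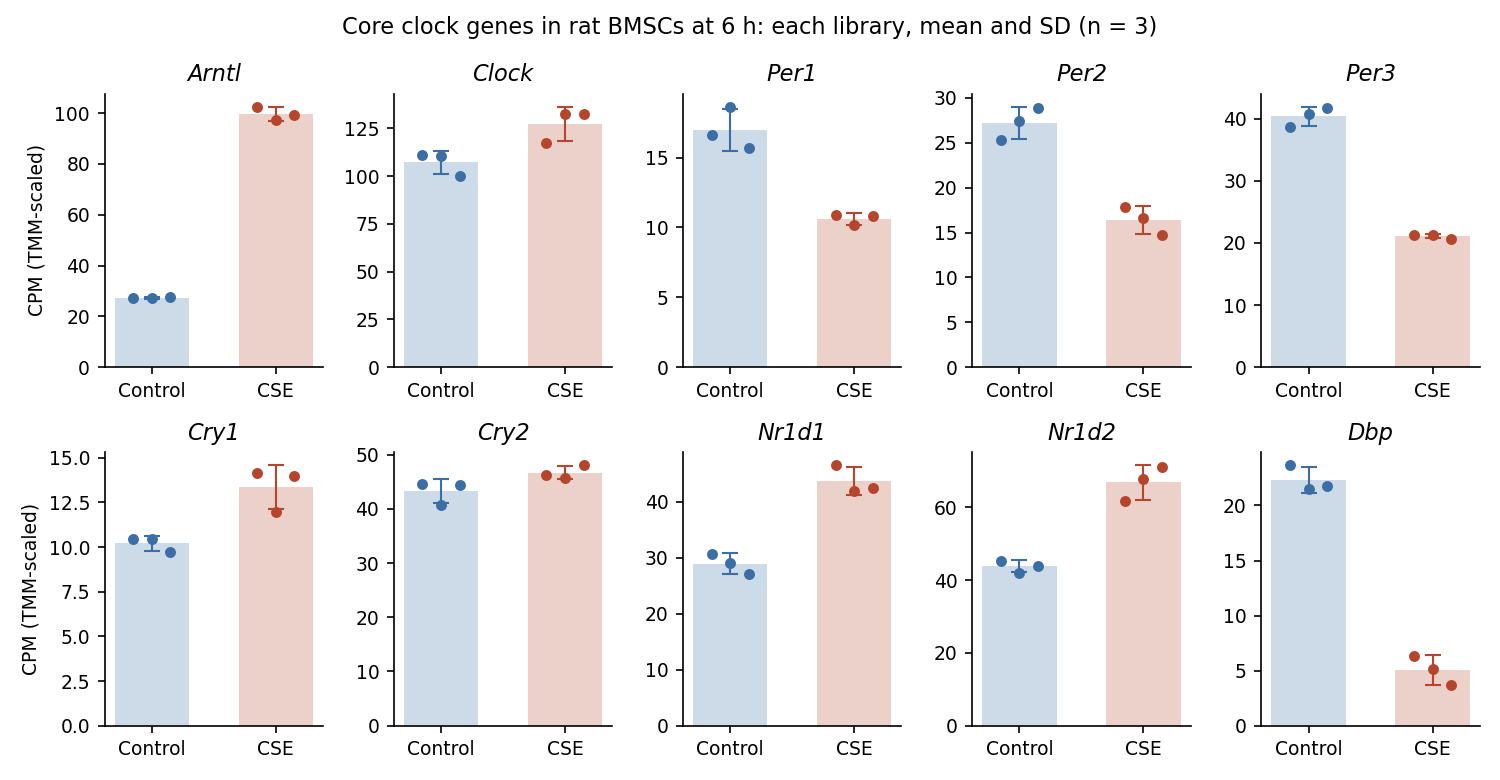
Normalized expression of the 10 core clock genes. Each panel is 1 gene, the y axis is CPM from 0, points are libraries, bars are means and error bars are SDs (n = 3); Arntl is near 27 CPM in the control libraries and above 97 CPM with CSE, whereas Dbp is above 21 CPM in the control libraries and below 7 CPM with CSE.

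The activators rose unequally. Arntl, which encodes BMAL1, was at 103, 97.3 and 99.2 CPM in the CSE libraries and at 27.0, 27.1 and 27.7 CPM in the control libraries. The replicates of each group lay close together and the groups were far apart. Arntl thus rose 3.65-fold, from 27.3 ± 0.398 to 99.7 ± 2.67 CPM (SD, n = 3), or by 1.87 ± 0.06 on the log2 scale (edgeR adjusted p = 8.62e-15). Clock, which encodes the partner of BMAL1, was at 117, 133 and 133 CPM with CSE and at 111, 110.5 and 100.3 CPM in the control. Its groups were separate by a narrow margin, and it rose 1.19-fold (0.25 ± 0.06, edgeR adjusted p = 0.00108). The call on Clock did not hold with libraries scaled by total counts alone (0.062, edgeR adjusted p = 0.366) or by upper quartile (0.11, edgeR adjusted p = 0.0886). The ratio of Clock to Arntl reads was 3.61 to 4.10 in the control libraries and 1.14 to 1.36 with CSE.

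All Per genes, which encode the period repressors, fell. Per1 was at 10.9, 10.1 and 10.8 CPM with CSE and at 16.6, 18.7 and 15.7 CPM in the control, a fall of 1.60-fold (−0.68 ± 0.10, edgeR adjusted p = 8.92e-06). Per2 was at 17.9, 16.6 and 14.8 CPM with CSE and at 25.3, 27.5 and 28.9 CPM in the control, a fall of 1.66-fold (−0.73 ± 0.09, edgeR adjusted p = 7.35e-07). Per3 was at 21.3, 21.3 and 20.7 CPM with CSE and at 38.6, 40.7 and 41.7 CPM in the control, a fall of 1.91-fold (−0.94 ± 0.07, edgeR adjusted p = 8.55e-10). For each of the 3 genes all CSE libraries lay below all control libraries. Per1 and Per2 kept their proportion, since the ratio of Per2 to Per1 reads was 1.64, 1.64 and 1.37 with CSE and 1.52, 1.47 and 1.84 in the control, in overlapping ranges. Per1 is known to respond acutely to cAMP and glucocorticoid signals, while Per3 is the member least needed for rhythm.

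The Cry genes, which encode the cryptochrome partners of the PER proteins, did not fall with them. Cry1 was at 14.1, 11.9 and 14.0 CPM with CSE and at 10.4, 10.4 and 9.74 CPM in the control. Its groups did not overlap, and it rose 1.31-fold (0.39 ± 0.11, edgeR adjusted p = 0.00289), but this call did not hold under total counts alone (0.20, edgeR adjusted p = 0.0896). Cry2 was at 46.3, 45.7 and 48.1 CPM with CSE and at 44.7, 40.8 and 44.4 CPM in the control. Its difference of 0.11 ± 0.06 on the log2 scale did not pass (edgeR adjusted p = 0.112), and its sign turned under total counts alone and upper-quartile scaling. The ratio of Cry2 to Cry1 reads, which needs no scaling of libraries, was 3.28 to 3.83 with CSE and 3.91 to 4.56 in the control, in ranges that did not overlap.

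Nr1d1 and Nr1d2, which encode the REV-ERB alpha and REV-ERB beta repressors of Arntl, rose together and by nearly the same factor. Nr1d1 was at 46.5, 41.9 and 42.4 CPM with CSE and at 30.7, 29.0 and 27.0 CPM in the control, a rise of 1.51-fold (0.60 ± 0.07, edgeR adjusted p = 5.75e-07). Nr1d2 was at 61.7, 67.8 and 71.1 CPM with CSE and at 45.3, 42.1 and 44.0 CPM in the control, a rise of 1.53-fold (0.61 ± 0.06, edgeR adjusted p = 1.31e-07). Neither gene had overlapping groups, and the ratio of Nr1d2 to Nr1d1 reads, 1.33 to 1.67 with CSE and 1.45 to 1.63 in the control, did overlap. In the RefSeq table Nr1d1 overlaps the thyroid hormone receptor gene Thra, which lies on the other strand, by 1061 bases, and with no stated strand setting reads there cannot be told apart. Thra itself was lower with CSE, at 24.4 ± 0.473 against 36.3 ± 0.504 CPM (−0.57 ± 0.06, edgeR adjusted p = 3.65e-07), the direction opposite to Nr1d1. Arntl thus stood higher together with both of its repressors at this time point.

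Dbp, the PAR bZIP factor gene that is a direct E-box target of BMAL1 and CLOCK, had the largest fall of the 10. It was at 6.36, 5.18 and 3.67 CPM with CSE and at 23.7, 21.5 and 21.7 CPM in the control. The highest CSE library lay well below the lowest control library. The fall was 4.37-fold, from 22.3 ± 1.19 to 5.07 ± 1.35 CPM (SD, n = 3), with a log2 value of −2.13 ± 0.14 (edgeR adjusted p = 2.57e-10). The CSE libraries held 134, 95 and 71 Dbp reads, and their coefficient of variation of 26.6% was the largest of any clock gene in either group.

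**Figure D2:**
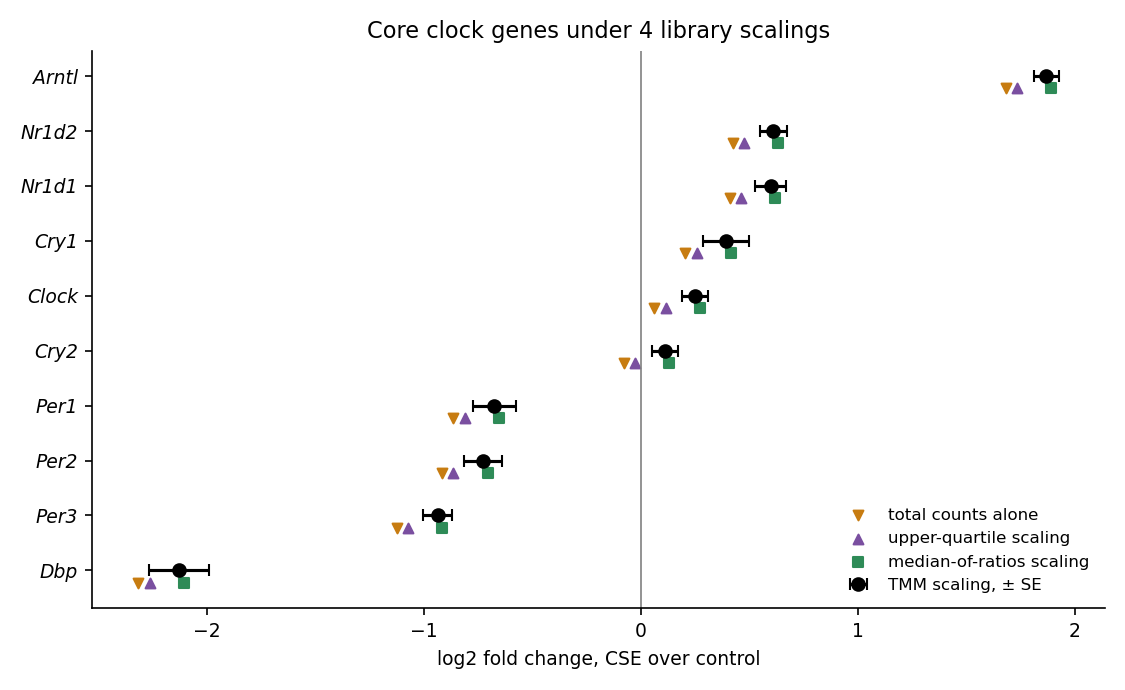
Log2 fold changes of the 10 genes, CSE over control, under 4 ways of scaling the libraries. Black points are the TMM values with their SE and coloured marks the other scalings; Arntl, Nr1d1 and Nr1d2 are above 0 and Dbp and the Per genes below 0 under all 4, while Cry2 lies on either side of 0.

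The calls on Cry1 and Clock and the sign of Cry2 depended on how libraries were scaled. Total counts alone shifted the median log2 fold change of all tested genes by −0.19 and upper-quartile scaling by −0.14, and of all called genes 49.2% were higher with TMM, 37.2% with total counts alone and 40.3% with upper-quartile scaling. Under total counts alone 3 of the clock genes rose and 4 fell. The 7 genes Arntl, Nr1d1, Nr1d2, Per1, Per2, Per3 and Dbp kept their call and direction under all 14 alternatives, which were the other scalings, tools and filters, the replicate block and the omission of each library.

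Ratios of reads within a library do not depend on scaling and set the arms of the loop against each other. The ratio of Arntl to Dbp reads was 1.14, 1.26 and 1.28 in the control libraries and 16.1, 18.8 and 27.0 with CSE. This was the widest separation among the 6 ratios formed, a mean log2 change of 4.04. The ratio of Arntl to Nr1d1 reads was 0.881, 0.933 and 1.03 in the control and 2.20, 2.32 and 2.34 with CSE, since Arntl rose by more than its repressor gene. Of the ratios between paralogs, Per2 to Per1 and Nr1d2 to Nr1d1 overlapped between the groups, and Cry2 to Cry1 did not. These ratios of counts also reflect transcript length, so that they can be compared between libraries and not read as relative numbers of transcripts.

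**Figure D3:**
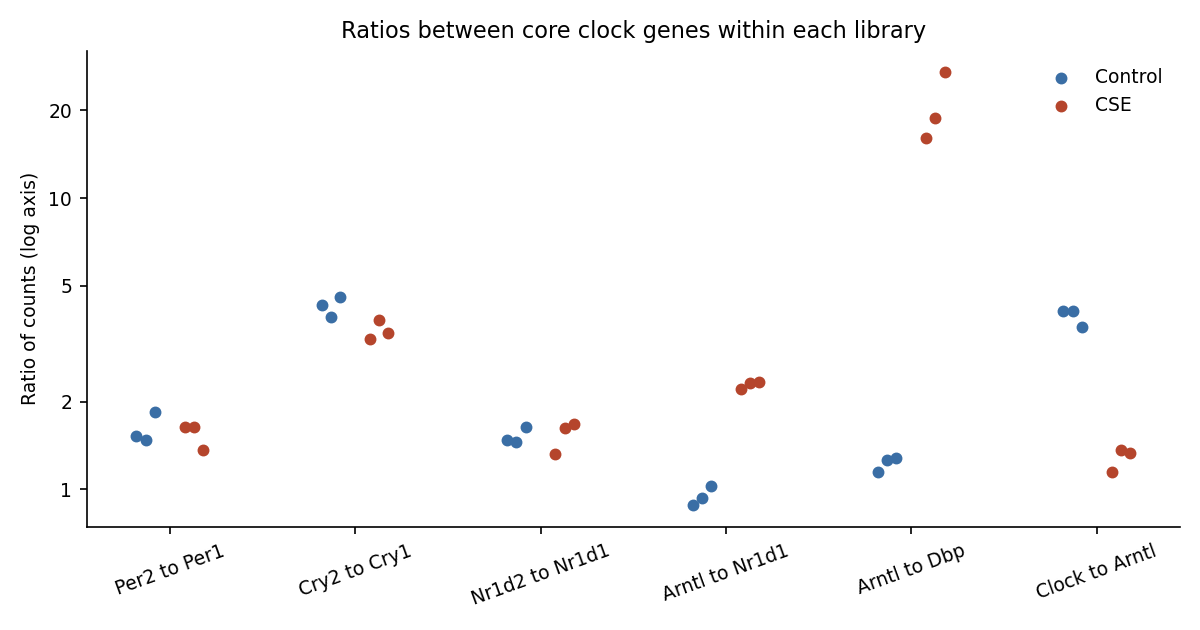
Ratios of read counts between pairs of core clock genes in each library. The y axis is logarithmic and each point is 1 library; Arntl to Dbp lies between 1.14 and 1.28 in the control and between 16.1 and 27.0 with CSE, while Per2 to Per1 and Nr1d2 to Nr1d1 overlap.

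Set among all tested genes, the clock genes spread from the far left to the far right. The log2 fold change of Arntl was above that of 95.7% of tested genes and that of Dbp above only 3.21%. Disregarding sign, 91.3% of tested genes changed less than Arntl and 93.3% less than Dbp. Per3 (72.2%), Per2 (62.1%) and Per1 (59.2%) stood somewhat above the middle in size of change, Nr1d2 (54.7%) and Nr1d1 (53.9%) close to it, and Cry1 (38.3%), Clock (25.6%) and Cry2 (11.5%) below it. Among 11516 tested genes, those whose names begin with LOC, RGD or a digit being left out, the genes with profiles most like Arntl over the 6 libraries, by the root mean square difference of centred log2(CPM + 0.5) values, were Cachd1 (0.028), the small MAF gene Mafk (0.038) and Ppp1r10 (0.039), a regulatory subunit gene of protein phosphatase 1. Those most like Dbp were Slc16a13 (0.075), the P-cadherin gene Cdh3 (0.086) and the peroxisomal protease gene Tysnd1 (0.11). With 1 contrast among 6 libraries, such likeness mostly means a change of equal size, as the log2 fold changes of 1.87, 1.79 and 1.87 for the former and −2.11, −2.20 and −2.31 for the latter show.

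**Figure D4:**
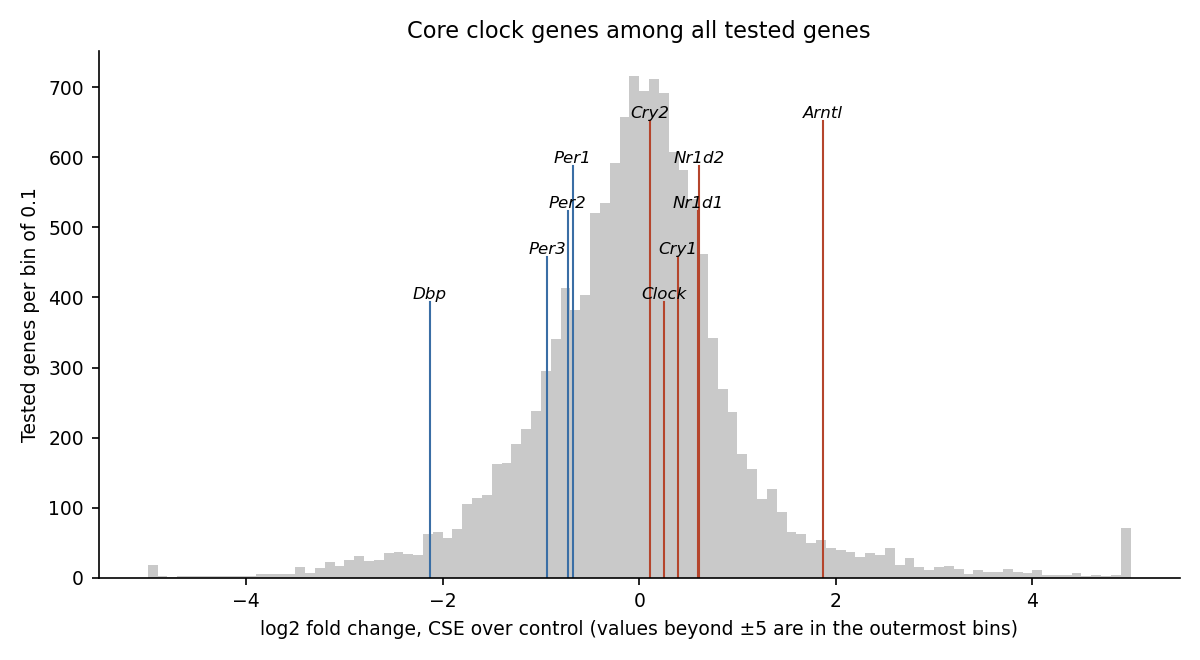
Distribution of log2 fold changes, CSE over control, over 13390 tested genes in bins of 0.1, with the 10 core clock genes marked by lines whose height has no meaning. Arntl at 1.87 and Dbp at −2.13 lie in the tails and the other 8 genes within the body of the distribution.

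Around the core loop, Rora, Nfil3, Npas2 and Ciart rose and Arntl2 and the Bhlhe genes fell. Of 11 paralogs and auxiliary factors fixed as a list, 9 were tested. Higher calls numbered 5, lower calls 3, and 1 gene did not pass, where 36.3% of all tested genes were higher and 37.5% lower. Under both total counts alone and upper-quartile scaling 4 were higher and 4 lower. The median log2 fold change of 1.06 was the value of Rorb, which passed only just. The next value below it was −0.10, that of Tef, so the median is no typical change of this list. Npas2, a paralog of Clock that can replace it, was at 4.98, 3.87 and 2.58 CPM with CSE and at 1.35, 1.05 and 1.46 CPM in the control (1.56 ± 0.27, edgeR adjusted p = 5.05e-05). Arntl2, the paralog of Arntl, moved the other way from Arntl, at 0.427, 0.600 and 0.258 CPM with CSE and 2.59, 3.16 and 3.43 CPM in the control (−2.83 ± 0.32, edgeR adjusted p = 3.95e-07), on 5 to 11 reads per CSE library. For both paralogs the groups were separate.

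Among the nuclear receptors that activate Arntl through AGGTCA elements, Rora was at 46.4, 50.1 and 63.2 CPM with CSE and at 17.3, 20.1 and 15.0 CPM in the control. It rose 3.05-fold (1.61 ± 0.11, edgeR adjusted p = 6.34e-10), that is by more than its competitors Nr1d1 and Nr1d2, though this difference was not tested. Rorb stood near 1 CPM with overlapping groups and passed only just (1.06 ± 0.46, edgeR adjusted p = 0.0474). Its call ended under 9 of the 13 alternatives that tested it, among them DESeq2 (adjusted p = 0.0801) and the omission of any library but Control replicate 2 (highest edgeR adjusted p = 0.231, without Control replicate 3). Without Control replicate 2 its log2 fold change was 1.86 (edgeR adjusted p = 0.00488).

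Nfil3, the repressor that competes with DBP at D-boxes, rose while Dbp fell. It was at 51.3, 45.3 and 45.7 CPM with CSE and at 14.4, 16.3 and 16.2 CPM in the control, a rise of 3.03-fold (1.60 ± 0.08, edgeR adjusted p = 4.59e-12). Tef, a PAR bZIP relative of Dbp, was at 41.7 ± 1.54 CPM with CSE and 44.8 ± 2.62 CPM in the control (−0.10 ± 0.06, edgeR adjusted p = 0.154) and did not pass under TMM scaling, although it was called lower under total counts alone (−0.29, edgeR adjusted p = 5.23e-04) and upper-quartile scaling (−0.24, edgeR adjusted p = 0.00264). The highest adjusted p of Tef over the alternatives was 0.405. Of the E-box repressors, Bhlhe40 fell 1.57-fold (−0.65 ± 0.06, edgeR adjusted p = 2.82e-08) and Bhlhe41 1.26-fold (−0.34 ± 0.08, edgeR adjusted p = 0.00143). Ciart, which encodes the repressor CHRONO, was at 9.63, 8.13 and 8.37 CPM with CSE and 2.94, 4.11 and 5.35 CPM in the control and rose 2.09-fold (1.06 ± 0.17, edgeR adjusted p = 2.97e-05). The E-box repressor genes thus divided, with the Per and Bhlhe genes lower and Ciart and Cry1 higher.

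**Figure D5:**
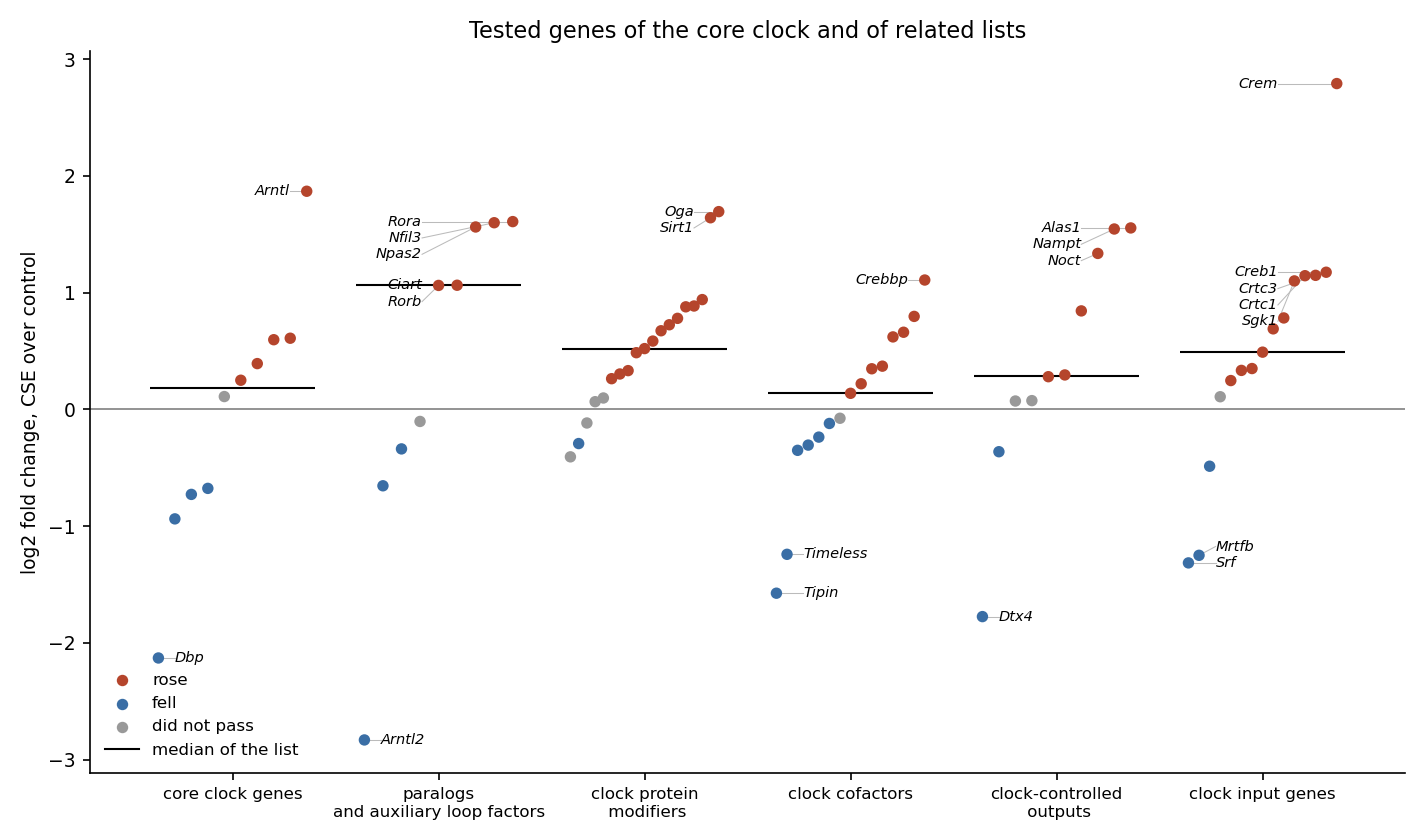
Log2 fold changes, CSE over control, of the tested core clock genes and of 5 related lists. Each point is 1 gene, red where it rose, blue where it fell and grey where it did not pass, with names at an absolute value of 1 or more and a line at the median of the list; core clock genes reach from Dbp at −2.13 to Arntl at 1.87.

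The counts of the next 4 lists stand against the same background of 36.3% of tested genes higher, 37.5% lower and 73.9% called in all, and whether a list differs from it was not tested. Of 22 enzymes that modify clock proteins 19 were tested. Of these 14 rose, 1 fell and 4 did not pass (median log2 fold change 0.52), or 13 and 2 under both total counts alone and upper-quartile scaling. Sirt1, the NAD-dependent deacetylase that acts on BMAL1 and PER2, rose from 20.6 ± 1.45 to 64.3 ± 5.58 CPM (1.64 ± 0.08, edgeR adjusted p = 3.21e-12). Oga, listed as Mgea5, removes O-linked N-acetylglucosamine from proteins and rose from 70.8 ± 1.84 to 229 ± 12.0 CPM (1.69 ± 0.05, edgeR adjusted p = 1.40e-14). Of genes named after their values were seen, the PER kinase genes Csnk1d and Csnk1e rose by log2 fold changes of 0.94 ± 0.05 and 0.59 ± 0.06.

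Of cofactors, 8 of the 15 tested were called higher, 6 lower and 1 neither (median log2 fold change 0.14), or 6 higher and 7 lower under both total counts alone and upper-quartile scaling. Crebbp, the acetyltransferase coactivator gene, rose 2.16-fold. Timeless and Tipin, partners at the replication fork that have also been linked to the clock, fell 2.36-fold and 2.98-fold, from 41.0 ± 5.13 to 17.4 ± 1.30 CPM and from 15.3 ± 1.40 to 5.13 ± 0.457 CPM. Of outputs that cycle in many tissues 10 were tested, of which 6 rose, 2 fell and 2 did not pass (median log2 fold change 0.29), and only 4 rose under total counts alone. The NAD salvage enzyme gene Nampt rose 2.92-fold, the haem synthesis enzyme gene Alas1 2.94-fold and Noct (listed as Ccrn4l), the nocturnin gene, 2.52-fold, whereas the Notch regulator gene Dtx4 fell 3.42-fold. The outputs thus did not move as one with Dbp. None of the cofactors and outputs given by a fold had an edgeR adjusted p above the 1.66e-06 of Noct.

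Genes through which cAMP, serum and other signals reach the clock included large changes both ways, with Crem higher and Srf lower. Of 16 fixed, 15 were tested. Higher were 11 and lower 3 (median log2 fold change 0.49), or 9 and 3 under total counts alone. Fkbp5 was the 1 gene that did not pass (0.11 ± 0.07, edgeR adjusted p = 0.153). On the cAMP side, Crem rose 6.92-fold, from 11.6 ± 0.0654 to 80.4 ± 3.29 CPM (2.79 ± 0.07, edgeR adjusted p = 4.55e-16). Creb1 rose 2.26-fold, and the CREB coactivator genes Crtc1 and Crtc3 rose 2.21-fold and 2.22-fold, while Per1, a known CREB target, fell. On the serum side, Srf fell 2.49-fold, from 124 ± 6.87 to 49.7 ± 2.16 CPM, and its coactivator gene Mrtfb (listed as Mkl2) fell 2.38-fold on 15 to 73 reads per library. The more abundant Mrtfa (listed as Mkl1) went the other way, from 56.5 ± 2.21 to 67.2 ± 1.78 CPM, a rise of 1.19-fold (edgeR adjusted p = 6.57e-04). Sgk1, which glucocorticoids and serum induce, rose 2.14-fold. None of the input genes that changed at least 2-fold had an edgeR adjusted p above the 6.08e-04 of Mrtfb.

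Among the fixed genes of these lists, Huwe1, Ogt, Nono, Tsc22d3 and Lonrf3, all on chromosome X, were listed at 0 in every library, Zbtb16 did not pass the filter on low counts, and Hlf and Fbxl21 were not analysed here.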

How the data were processed

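RNA of 6 rat BMSC libraries, 3 with CSE and 3 control, was sequenced. The authors deposited raw read counts per gene symbol, whole numbers with no normalization. HISAT2 2.0.4 and the build Rnor_6.0 are named, with no role, per the submitters' processing notes. No source used here gives the counting tool, annotation or strand setting. Each column was assigned by its name, which matches 1 sample title. Genes were filtered with filterByExpr (13390 kept), scaled with TMM and tested with edgeR 4.0.16 in R 4.3.3 by the 2-sided quasi-likelihood F test, with p-values adjusted over all of them by Benjamini-Hochberg at 0.05. SE is the log2 fold change divided by the square root of F. In total 15958621 to 22589327 counts per library make 3 counts worth 0.142 to 0.177 CPM. Arntl is Bmal1 in RefSeq, and Oga, Noct, Mrtfa, Mrtfb and Adgre1 were read under the older symbols Mgea5, Ccrn4l, Mkl1, Mkl2 and Emr1. Promoter letters and gene overlaps come from RefSeq tables of GRCr8, not the build of the counts. The clock genes and the 10 gene lists were chosen with earlier results of these data known. Named genes are all core, paralog and auxiliary factors, members of the other lists called with at least 2-fold change, and the 3 profiles most like the largest rise and fall. Mrtfa, Fkbp5 and the markers Cd44, Vcam1, Cd68, Adgre1, Csf1r and Itgam were named after their values were seen. Alternatives were total-count, upper-quartile and median-of-ratios scaling, DESeq2 1.42.0, limma-voom (limma 3.58.1), no filter, 10 counts in every library, a replicate block, and each library left out. The fits were tested on simulated data. Some genes of the fixed lists are counted but not reported here by name.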

Additional observations from a re-analysis of the deposited data

How the results depend on the processing

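Of the 10 core clock genes, 7 kept their call and direction under all 14 alternatives, and the fold of each of the 10 moved by less than 1.5 times. Under total counts alone Cry1 (0.20) and Clock (0.062) lost their call and Cry2 turned to −0.078, so that 3 core genes rose. Under upper-quartile scaling Clock (0.11) lost its call and Cry2 turned to −0.026. Per3 passed 2-fold under both, giving 2 core genes that fell that much. The TMM factors were 0.932 to 0.944 in the CSE libraries and 1.064 to 1.074 in the control libraries, and total counts alone leaves them out. Why these factors divide by group was not tested. The modifiers that fell numbered 2 under both, and 1 to 2 with a library left out (2 without CSE replicate 1). Mrtfa, Fkbp5 and the cell type markers were not followed under the alternatives. Of 34 other named genes, Rorb lost its call and Tef gained one under both scalings, and under the other alternatives that tested them only Rorb changed its call, with no sign turned. Deviations from the group mean of same-numbered libraries correlated at 0.0046, −0.025 and −0.017, and those of differently numbered libraries at −0.079 to 0.101. These values gave no sign of pairing by number. With deviations centred in groups of 3, they cannot show whether libraries shared a culture or animal. With a replicate block 9756 genes were called against 9894, and 5 core genes rose and 4 fell, as without it. Depth limits Arntl2, Rorb, Mrtfb and the marker Vcam1, each with libraries of under 20 reads.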
